A study of Mus musculus with 2 samples.

Results

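Long intergenic noncoding RNAs (lincRNAs) are spliced or unspliced transcripts without a long reading frame that arise between coding genes. The intervals described here lie close to such genes. They are the genomic intervals on the array whose name gives chromosome, start, end and strand (forward or reverse), with a distance of at most 20 kb to the mapped position of a probe for a curated coding transcript (RefSeq NM_). The interval that corresponds to the over-expressed ESlncRNA itself on chromosome 4 was left out under both of its strand names. Of 4607 such named intervals, 2046 met the rule, and 2559 lay farther away. The 2046 names cover 1506 genomic loci and 7733 probes, since 540 loci carry a forward and a reverse name, 494 a forward name only and 472 a reverse name only. The rule used positions and no measured values. Distances run to probe positions, not to gene ends.

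The RNA came from erythroid progenitors, depleted of lineage-positive cells, of E14.5 fetal livers of C57BL/6 mice. The cells carried either ESlncRNA or the vector after transduction, and both were sorted for GFP. Each of 2 two-colour arrays set RNA of ESlncRNA cells (Cy5) against RNA of vector cells (Cy3). All ratios below are log2 of ESlncRNA over vector, given for the array of replicate 1, then that of replicate 2, then as mean ± SD (n = 2 arrays). Dyes were not swapped: any dye bias would enter both arrays with the same sign.

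A transcript near a gene can be related to it in several ways. It can run on the gene's own strand, downstream or upstream, or against it as an antisense or divergent transcript. Some lncRNAs act on their neighbours in cis, and some have no known function apart from their transcription. In erythroid differentiation, lncRNAs are known both as cell-type-specific transcripts and, for a few, as regulators of survival and enucleation. Probes of these arrays are 60 bases long and single-stranded, so the forward and reverse names of a locus report its strands separately. All 16063 interval probes with a mapped position lay on the strand that the name gives.

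The probes behind the results that follow are printed here from the deposited files, 5′ to 3′, with positions on mm9. Those at Mgam (from 2 overlapping intervals), Tbc1d2 and Ifi204 fell, as did the gene on their strand. The pairs beside Ppil1 and Abt1 cover a single site on both strands, and capitals mark the bases that the forward and the reverse probe share as complements, 44 beside Ppil1 and 57 beside Abt1. The last 2 come from intervals that rose, one with its gene (Pacsin2) and one against it (Prss23).
Mgam, forward, chr6:40718909-40718968: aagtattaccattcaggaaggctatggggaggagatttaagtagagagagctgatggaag
Mgam, forward, overlapping interval, chr6:40718898-40718957: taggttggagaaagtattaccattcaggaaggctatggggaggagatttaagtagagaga
Tbc1d2, reverse, chr4:46583956-46584015: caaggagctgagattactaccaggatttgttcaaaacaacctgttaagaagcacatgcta
Ifi204, reverse, chr1:175653663-175653722: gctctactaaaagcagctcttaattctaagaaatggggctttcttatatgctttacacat
Ppil1, forward, chr17:29374949-29375008: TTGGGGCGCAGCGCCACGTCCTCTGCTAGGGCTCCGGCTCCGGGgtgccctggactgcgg
Ppil1, reverse, chr17:29374933-29374992: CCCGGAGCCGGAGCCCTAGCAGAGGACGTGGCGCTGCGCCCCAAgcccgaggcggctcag
Abt1, forward, chr13:23517358-23517417: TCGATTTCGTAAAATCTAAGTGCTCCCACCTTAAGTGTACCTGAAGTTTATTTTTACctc
Abt1, reverse, chr13:23517355-23517414: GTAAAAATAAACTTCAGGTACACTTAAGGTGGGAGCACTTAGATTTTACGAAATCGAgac
Pacsin2, reverse, chr15:83187962-83188021: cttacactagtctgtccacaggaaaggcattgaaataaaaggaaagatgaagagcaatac
Prss23, reverse, chr7:96644199-96644258: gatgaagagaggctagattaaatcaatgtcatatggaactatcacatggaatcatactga

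Markers of the labelled cells and of other lineages moved beside the intervals. All 10 listed erythroid markers were measured, 7 were called higher and none lower, and their ratios ran from 0.04 to 0.94. Markers of other cells fell: 10 of 10 granulocyte markers (median -4.49, range -5.43 to -0.29), 9 of 9 measured macrophage markers (median -0.99, range -3.31 to -0.44), 8 of 8 megakaryocyte markers (median -1.57, range -2.42 to -0.26) and 5 of 5 measured mast cell markers (median -1.80, range -4.38 to -0.75). Of the hepatocyte markers 6 of 8 fell (range -2.91 to 0.01), and of the endothelial markers 5 of 6 (range -1.33 to 0.08). In bulk RNA, fewer cells of a type and less RNA per cell cannot be told apart, and the part of these lineages in the interval ratios was not tested. Both arrays lay on 1 slide. For 120 probes with at least 10 unmarked spots, the arrays differed by a median of 0.0240, where the noise between spots alone gives 0.0247, and the labels do not say whether the replicates are separate RNA samples.

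The first comparison asked which intervals near genes changed with ESlncRNA. Of the 2046 intervals, 1195 were measured, meaning that on each array a probe stood well above background in 1 channel or both (58.4%), against 1164 of the 2559 farther away (45.5%). The remaining 851 were not measurable at this signal and are in none of the counts below. Of the 1195, 317 were called higher and 279 lower by limma (adjusted p under 0.05 over all probes), and 599 were not called. That is 26.5% higher and 23.3% lower, beside a background of 26.3% higher and 36.7% lower over all 19935 genes and intervals tested. Of the 596 calls, 503 lay within 1.5-fold (84.4%), beside 70.8% of calls over all genes and intervals. At least 2-fold on both arrays, 5 intervals were higher and 22 lower (0.418% and 1.84%), where the background is 0.607% and 8.1%. These counts were 61 and 45 with the scanner software's processed signals and 18 and 13 with median centring. The split of higher against lower depends on the scaling: with median centring in place of loess 675 were called higher and 97 lower, and with processed signals 481 and 122. The intervals farther away gave similar shares, 27.6% higher and 22.3% lower, with 3 and 23 past 2-fold; the difference between near and far intervals was not tested.

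**Figure D1:**
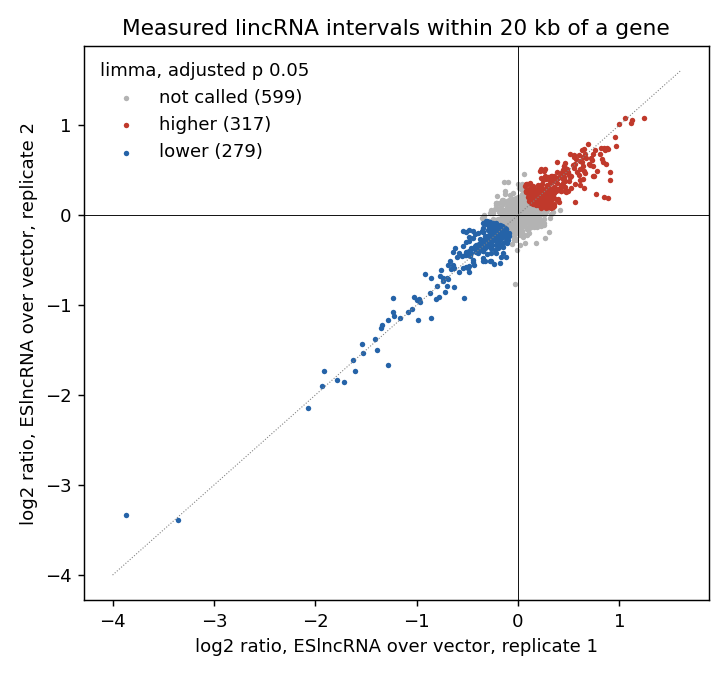
Log2 ratio of ESlncRNA over vector on the array of replicate 1 (x axis) against that of replicate 2 (y axis), 1 point per measured interval near a gene, coloured by limma's call (317 higher, 279 lower, 599 not called); the dotted line marks equal values. The lowest 2 points are the overlapping intervals at Mgam.

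The ratios of these intervals on both arrays correlated at r = 0.922 (rho = 0.813, 1195 intervals, both arrays on 1 slide). Their median ratio was 0.02, with quartiles of -0.14 and 0.17, beside a median of -0.03 over all genes and intervals. With median centring the medians were 0.22 and 0.34, so that the intervals stood below all genes and intervals, and with processed signals 0.28 and 0.11. Intervals were dim: the median of the mean log2 intensity was 7.14, against 10.03 for the 12671 coding genes measured. Beside this, at a matched mean log2 intensity of 7 to 8, 22.9% of coding genes (1492 genes) and 3.19% of intervals (313 intervals) were at least 2-fold lower. At 8 to 10 the shares were 16.5% (2707 genes) and 3.20% (219 intervals), and above 10 they were 6.59% (6378 genes) and 2.03% (148 intervals). Up to 7, the class with the most intervals, they were 7.74% (2094 genes) and 0.388% (515 intervals). The median probe GC content was 45% among higher, lower and uncalled intervals alike. Their median distances to the gene probe were 5605, 5213 and 5553 bases in the same order.

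Several probes of an interval could be compared in part. Of 648 intervals with 2 or more measured probes, 243 had at least 2 probes called in 1 direction and 0 in the other, and 55 had called probes of opposite sign. The median range of the probes within an interval was 0.22. Of the 2046 intervals, 943 overlap another of them on the same strand, and joining these leaves 1500 stretches, so neighbouring names are not independent measurements.

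The interval with the lowest fitted ratio lies at the gene for maltase-glucoamylase, Mgam, an enzyme of starch digestion. It spans chromosome 6 from 40693617 to 40720167 on the gene's strand and holds a probe of the gene. Its ratios were -3.87 and -3.33 (-3.60 ± 0.38), a 12.1-fold fall (adjusted p = 1.17e-06). Of its 5 probes 4 were called lower and 1 higher, so its probes did not move together (mean over them -2.14). The overlapping interval from 40699474 to 40719122 gave -3.35 and -3.39 (-3.37 ± 0.03, adjusted p = 6.92e-08), with both of its probes lower. Both intervals are represented by probes that overlap each other, as printed above. The Mgam probe itself gave -1.09 and -0.95 (at least 1.80-fold lower, since its ESlncRNA signal was not well above background; adjusted p = 1.29e-05), so the falls of interval and gene cannot be ranked.

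The intervals beside Tnrc18, Tbc1d2 and Ifi204 also lay on the strand of a gene that also fell. Beside Tnrc18, the interval at chromosome 5 from 143200557 to 143204033 gave -2.07 and -2.15 (-2.11 ± 0.06, adjusted p = 3.24e-07) and the gene -1.91 ± 0.06. This interval's single probe shares bases with a probe of the gene, so the 2 values are not separate measurements. Downstream of Tbc1d2, a regulator of Rab7 in endosomes, the interval at chromosome 4 from 46583780 to 46614788 lay 2.47 kb from the gene probe. Its ratios were -1.91 and -1.73, at least 3.47-fold lower (adjusted p = 1.17e-06), and the gene gave -3.07 ± 0.03 (adjusted p = 8.17e-08). With processed signals the interval stood at -3.57. Of its 2 probes 1 was measured. Downstream of Ifi204, an interferon-inducible gene of the p200 family, the interval at chromosome 1 from 175653557 to 175671940 gave -1.71 and -1.85 with 3 of 3 probes lower, at least 3.34-fold (adjusted p = 9.43e-07; -1.17 over the 3 probes). The gene gave -1.82 ± 0.06. As the interval's fall is only a bound (-3.50 with processed signals), its difference from the gene was not sized.

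The remaining 4 of the lowest 8 ran on the strand opposite to the nearest gene, and none of the 3 of those genes that were measured fell as far. Beside Ppil1, a peptidyl-prolyl isomerase of the spliceosome, the forward interval at chromosome 17 from 29374758 to 29387733 gave -1.93 and -1.90 (-1.92 ± 0.02, adjusted p = 3.94e-07) and Ppil1 0.24 ± 0.03. Of the 3 measured probes of this interval 1 was called lower and 1 higher, so the fall rests on the probe printed above (mean over the 3 probes -0.54). The GC content of that probe is 75%. The next genes by distance, BC004004, Cpne5 and Pi16, gave -0.42, -0.48 and -3.57. Beside Map7d2, a microtubule-binding protein, the interval at X from 155945151 to 155945654 gave -1.79 and -1.84 (-1.81 ± 0.04, adjusted p = 5.16e-07; -1.12 over its 2 measured probes) against 0.33 ± 0.19 for the gene. The Map7d2 interval was above background in ESlncRNA cells on 1 array only, so the size of its fall is not exact. The interval at chromosome 8 from 126396600 to 126407275, beside the skeletal muscle actin gene Acta1, gave -1.63 and -1.61 (-1.62 ± 0.01, adjusted p = 7.63e-07) and Acta1 -0.40 ± 0.08. Of this interval's 3 probes 1 was measured. Within the Hoxb cluster, the reverse interval at chromosome 11 from 96111499 to 96126224 gave -1.61 and -1.73 (-1.67 ± 0.09, adjusted p = 1.09e-06). Of its 2 measured probes 1 was called lower, and the mean over both was -0.76. Hoxb9, its nearest gene at 11.5 kb, was not measurable at this signal, nor were Hoxb8, Hoxb7 and Hoxb6.

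Of the 8 highest intervals, those beside Zfp937, Ankrd50, Prss23 and Hmbox1 had a vector signal not well above background, so their order is not fixed. They passed the filter through the ESlncRNA channel only, and each rests on 1 measured probe, of 4, 3, 4 and 3 in the same order. With processed signals they stood at 4.34, 4.33, 4.22 and 3.58, and that of Abt1 at 3.18. The reverse interval at chromosome 13 from 23517278 to 23523756, 6.99 kb upstream of the transcription activator gene Abt1, gave 1.24 and 1.08 (1.16 ± 0.12, 2.24-fold, adjusted p = 8.60e-06). Its vector signal was well above background on 1 array only, so the size of the rise is not exact. Abt1 was not measurable. Downstream of Pacsin2, a protein that shapes membranes in endocytosis, the interval at chromosome 15 from 83181291 to 83197750 gave 1.13 and 1.05 with 3 of 3 measured probes higher (adjusted p = 5.60e-06; 0.64 over the 3 probes). Pacsin2 rose as well, by 0.40 ± 0.01 (difference from the brightest probe 0.69 ± 0.06, adjusted p = 3.52e-05). The interval downstream of Cep135, a centriole protein, gave 1.001 and 1.013 (adjusted p = 6.65e-06) on the opposite strand, and Cep135 0.34 ± 0.00061. Downstream of Ankrd50 the interval gave 0.96 and 0.87, at least 1.73-fold higher (adjusted p = 1.40e-05), with 0.49 ± 0.07 for the gene. In these 3 pairs interval and gene rose together.

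The remaining 4 high intervals did not rise with their gene. The interval antisense to the zinc finger gene Zfp937 gave 1.06 and 1.08, at least 1.91-fold higher (adjusted p = 5.03e-06), and the gene -0.27 ± 0.05. Downstream of Dnajc15, a mitochondrial co-chaperone, the interval gave 1.11 and 1.02 (adjusted p = 6.77e-06) and the gene -0.32 ± 0.04. Of this interval's 2 measured probes 1 was called higher, and the mean over both was 0.53. The interval downstream of the homeobox gene Hmbox1 gave 0.89 and 0.74, at least 1.64-fold higher (adjusted p = 4.30e-05), with 0.04 ± 0.10 for the gene (adjusted p = 0.535). Downstream of the serine protease gene Prss23 the interval gave 0.97 and 0.76, at least 1.68-fold higher (adjusted p = 5.22e-05), while Prss23 gave -0.93 and -1.06, at least 1.97-fold lower (adjusted p = 1.23e-05).

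**Figure D2:**
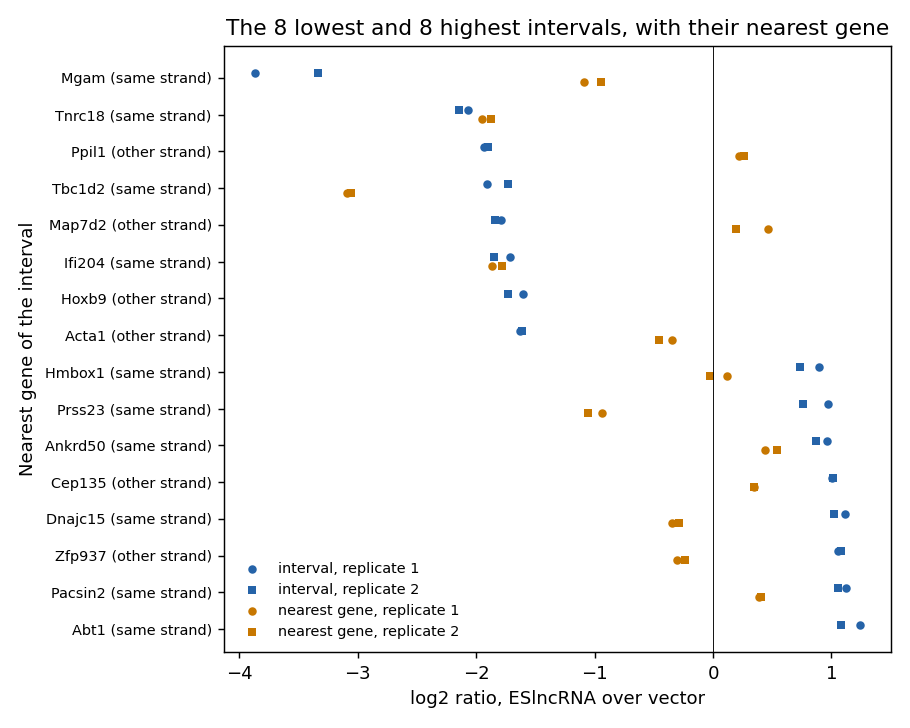
Log2 ratio of ESlncRNA over vector (x axis) for the 8 lowest and 8 highest intervals, 1 per stretch of overlapping intervals, named by nearest gene and strand relation (y axis); blue points are the interval and orange points the gene, with a circle for replicate 1 and a square for replicate 2. Hoxb9 and Abt1 have no gene points because they were not measurable; the gene lies near the interval for Tnrc18 and Ifi204 and on the other side of 0 for Ppil1, Map7d2, Prss23, Dnajc15 and Zfp937.

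The second comparison set each interval against its nearest gene. Both were measured in 1010 pairs, over 542 genes. Across these pairs the ratios of interval and gene correlated at r = 0.242 and rho = 0.204. By strand, for the 594 intervals on the gene's strand r was 0.360 (0.348 on the array of replicate 1 and 0.358 on that of replicate 2; rho = 0.304), and for the 416 on the other strand it was 0.002 (rho = 0.054). The difference between the strands was not tested. Pairs share arrays, spots of 1 scan and, in part, a gene, so these correlations describe the pairs and carry no p-value. Farther than 20 kb, r was 0.090 over 435 pairs on the gene's strand and 0.116 over 417 on the other.

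Where interval and gene were both called, the shares with 1 direction also differed by strand, again untested. On the gene's strand 161 of 227 pairs had 1 direction (70.9%), and on the other strand 68 of 133 (51.1%). Farther than 20 kb these were 76 of 148 (51.4%) and 84 of 157 (53.5%). For intervals on the gene's strand with a gene probe inside, 35 of 38 pairs had 1 direction (92.1%). Among the intervals near genes, 36 have a probe that shares bases with a coding transcript probe. Some of the 38 pairs may therefore not be separate measurements, and how many was not counted. Without intervals that hold a gene probe, the shares were 66.7% on the gene's strand and 49.6% on the other. The shares by strand over all intervals near genes rise where a scaling shifts all ratios one way. With median centring they were 84.0% and 77.9%, and with processed signals 77.2% and 66.4%.

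By position on the gene's strand, rho was 0.638 for the 74 pairs with a gene probe inside the interval, 0.270 for 418 intervals downstream and 0.147 for 102 upstream. Some of the 74 pairs may share probe bases and so not be separate measurements. Without intervals that hold a gene probe, rho was 0.247 on the gene's strand and 0.013 on the other. On the other strand, rho was 0.392 for 48 pairs with a gene probe inside, 0.002 for 243 downstream and 0.027 for 125 upstream. By distance, rho on the gene's strand was 0.320 up to 1 kb (78 pairs), 0.280 from 1 to 5 kb (153 pairs), 0.273 from 5 to 10 kb (125 pairs) and 0.138 from 10 to 20 kb (164 pairs). Beyond 20 kb it lay at 0.032 (184 pairs), 0.002 (138 pairs) and 0.122 (113 pairs). Pearson r on the gene's strand did not fall steadily, so the course with distance depends on the coefficient. It was 0.413 with a gene probe inside, 0.206 up to 1 kb, 0.355 from 1 to 5 kb and 0.479 from 5 to 10 kb. From 10 to 20 kb it was 0.302, from 20 to 50 kb 0.253, and beyond 50 kb -0.061 and 0.100. On the other strand rho was 0.158 from 20 to 50 kb (196 pairs).

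**Figure D3:**
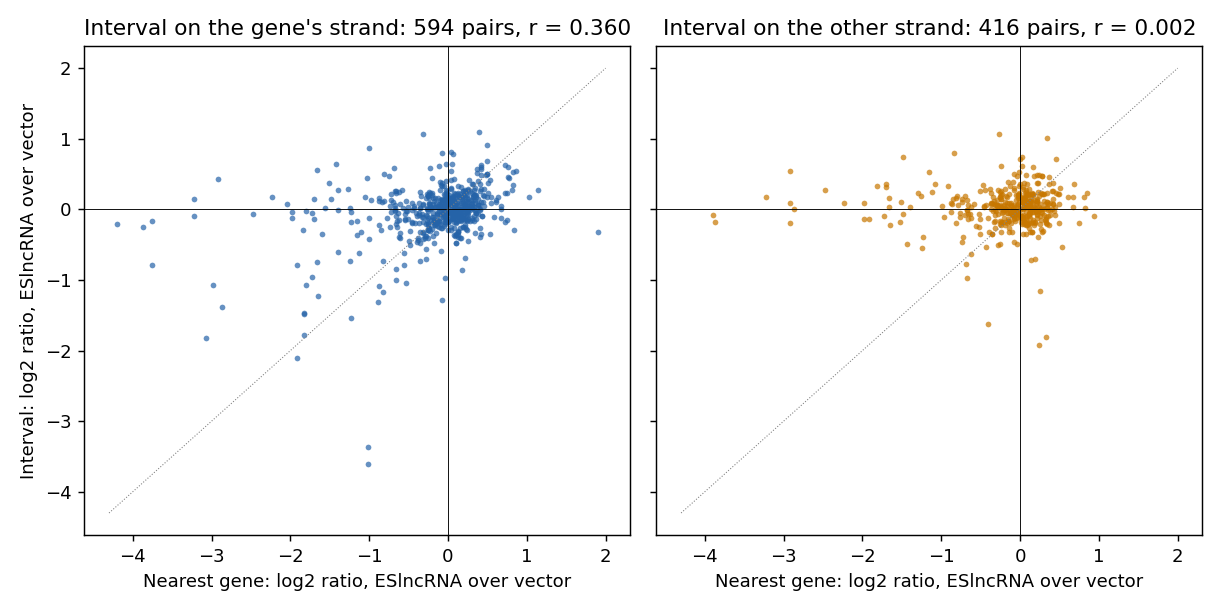
Log2 ratio of ESlncRNA over vector for the nearest gene (x axis) and the interval (y axis), 1 point per pair as the mean of 2 arrays, for intervals on the gene's strand (left, 594 pairs, r = 0.360) and on the other strand (right, 416 pairs, r = 0.002); the dotted line marks equal ratios. On the left the points with low genes spread from 0 down to the line, and on the right they stay near 0 on the y axis.

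**Figure D4:**
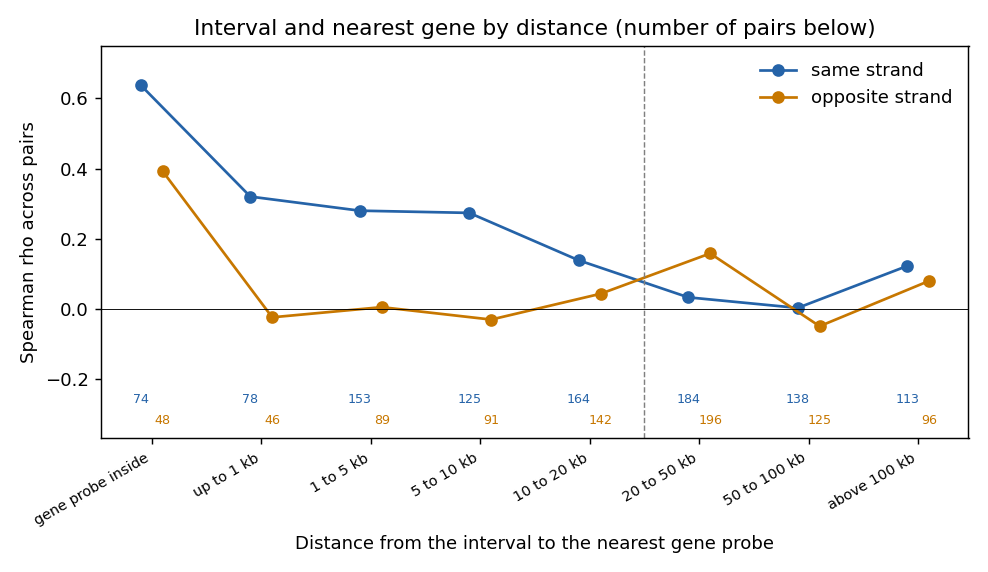
Spearman rho across pairs (y axis) by distance from the interval to the nearest gene probe (x axis), for intervals on the gene's strand (blue) and on the other strand (orange), with the number of pairs in each class under the points and a dashed line at 20 kb. On the gene's strand the coefficient starts at 0.638 with a gene probe inside and is 0.138 at 10 to 20 kb, while the other strand is near 0 from outside the gene probe to 20 kb. At 20 to 50 kb the other strand lies at 0.158, above the gene's strand.

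How many intervals were measured was also counted by strand. Within 20 kb, 62.1% of 1096 intervals on the gene's strand were measured and 54.1% of 950 on the other. With a gene probe inside, the shares were 79.5% of 112 and 54.8% of 104. At 10 to 20 kb they were 55.6% of 340 and 58.8% of 308.

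The second nearest gene served as a comparison. In 241 intervals with a second measured gene within 20 kb, r was 0.284 with the nearest gene and 0.029 with the second, and 0.036 between the 2 genes. At 208 loci measured under both names with a measured gene, the name on the gene's strand correlated with the gene at r = 0.229 (rho = 0.201) and the other name at r = -0.001 (rho = 0.116). At 103 of these 208 loci the name on the gene's strand had the ratio nearer to that of the gene, so locus by locus the strands were about evenly placed.

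Pairs with a strongly lower gene were counted apart. In 82 pairs the gene was at least 2-fold lower on both arrays; the interval was called lower in 31, higher in 22 and not called in 29, and in 9 it was at least 2-fold lower too. The 37.8% called lower compares with 23.3% of all measured intervals near genes and 36.7% of all genes and intervals. On the gene's strand 26 of 50 such intervals were called lower, and on the other strand 5 of 32. Read the other way, of 19 intervals at least 2-fold lower with a measured gene, 15 lay on the gene's strand, and 14 of these had a gene called lower. Of all 1010 pairs, 594 lay on the gene's strand. The 15 include overlapping intervals at Mgam and beside Ifi204, and the Tnrc18 interval whose probe shares bases with the gene's. They are therefore not 15 separate cases. These lists were chosen by the ratios themselves and are given as a description.

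The within-array difference of interval minus gene was tested over all 1864 pairs on the array. For the intervals near genes, 319 had a ratio above that of the gene and 245 below (limma, adjusted p under 0.05), 31.6% and 24.3% of 1010, where the background over all pairs is 37.6% above and 23.5% below. The balance turned with median centring, to 232 above and 494 below. The median absolute difference was 0.25, against 0.37 for the 852 pairs farther than 20 kb.

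The largest positive differences came from genes that fell beside an interval whose brightest measured probe moved little. S100a6, a calcium-binding protein, gave -4.15 and -4.25, while the interval 7.05 kb downstream on its strand gave -0.29 and -0.13 (difference 3.99 ± 0.18, adjusted p = 3.69e-10). Of that interval's 5 probes 1 was measured. The organic anion transporter gene Slco4a1 gave -3.91 and -3.89 and the interval beside it -0.11 and -0.04, the latter not called by its brightest probe (adjusted p = 0.216). Of the 3 measured probes of this interval 2 were called lower. Myo1g, a myosin of blood cells, gave -3.96 and -3.78. The locus upstream of it was measured on both strands, with -0.17 and -0.20 on the other strand (difference 3.69 ± 0.15) and -0.26 and -0.25 on the gene's own (difference 3.61 ± 0.12). Ptgs1, the cyclooxygenase-1 gene, gave -3.72 and -3.78 and its downstream interval -0.09 and -0.24 (difference 3.59 ± 0.07, adjusted p = 3.69e-10). Irf1, an interferon regulatory factor, gave -2.97 and -2.87; the interval 1.07 kb downstream on the other strand gave 0.89 and 0.19 (difference 3.46 ± 0.57, adjusted p = 1.65e-08), and the arrays thus disagree on the interval's own ratio.

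The fitted negative differences of largest size included both Mgam intervals, where the gene's fall is only a bound and the size of the difference is not fixed, and those beside Ppil1 (-2.16 ± 0.0038) and Map7d2 (-2.14 ± 0.16). The size at Map7d2 is not exact either, as its interval was above background in ESlncRNA cells on 1 array only. At Mgam the fitted differences were -2.58 and -2.35, and with processed signals -1.01 (adjusted p = 0.151) and -0.69 (adjusted p = 0.0719). Among the genes of these pairs that rose (Trib3, Ppil1, Map7d2 and Ndufs1), Trib3, a pseudokinase induced by cell stress, gave 1.81 and 2.01, while the interval 9.53 kb upstream on its strand gave -0.35 and -0.28 (difference -2.22 ± 0.10, adjusted p = 4.90e-09). Of that interval's 3 probes 1 was called higher and 1 lower. Beside Ndufs1, a subunit of respiratory complex I, the interval on the other strand gave -1.24 and -1.08 with 5 of 5 probes lower, and the gene 0.25 ± 0.04 (difference -1.41 ± 0.07, adjusted p = 1.27e-07).

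Interval and gene were called in opposite directions in 131 of the 360 pairs in which both were called. Over all pairs, near and far, it was 276 of 665, and farther than 20 kb 145 of 305. The shares with 1 direction were 63.6%, 58.5% and 52.5% in the same order. In 7 of the 8 pairs near genes where both moved most, the interval rose and the gene fell. Besides Prss23 and Irf1, these included Nr4a1, an immediate early nuclear receptor, with -1.53 and -1.45 and an interval 15.5 kb upstream on the other strand at 0.76 and 0.73, called in 1 of its 2 measured probes (difference 2.23 ± 0.09, adjusted p = 4.58e-09). Nfatc1, a calcium-regulated transcription factor, gave -1.51 and -1.33, and the interval 1.11 kb downstream on its strand 0.74 and 0.54, at least 1.33-fold higher. Irf2bpl gave -1.56 and -1.77, and the interval 0.021 kb downstream on its strand 0.66 and 0.47, at least 1.41-fold higher (difference 2.23 ± 0.01, adjusted p = 3.91e-09). The zinc finger gene Zfp202 gave -0.82 and -0.87 with an interval at 0.85 and 0.74. Nanos3, a germ cell gene, gave -0.73 and -0.65 with an interval at 0.74 and 0.43. In 6 of these 7 intervals, all but that of Nr4a1, the vector signal was not well above background on either array, so the sizes of their differences from the gene are not exact. These 6 passed the filter only through the ESlncRNA channel, the one in which they are high, so their direction is not independent of the filter. Each of the 6 rests on 1 measured probe. The reverse case was Rps20, a ribosomal protein gene, with 0.61 and 0.46 and an interval at -0.64 and -0.41, both of its measured probes lower (difference -1.06 ± 0.27, adjusted p = 6.76e-06; adjusted p = 0.0515 with processed signals).

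The last comparison set the forward against the reverse name of a locus. Of 540 loci with both names, 243 were measured under both, 87 under the forward name only, 124 under the reverse name only and 86 under neither. Over the 243 loci the strands correlated at r = 0.188 (rho = 0.239), and 84 were called different by limma (34.6%; 47 with the forward ratio higher and 37 lower), beside 37.1% of all 421 such loci on the array. At 59 loci both strands were called, 41 in 1 direction and 18 in opposite directions. The median absolute difference between strands was 0.19.

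**Figure D5:**
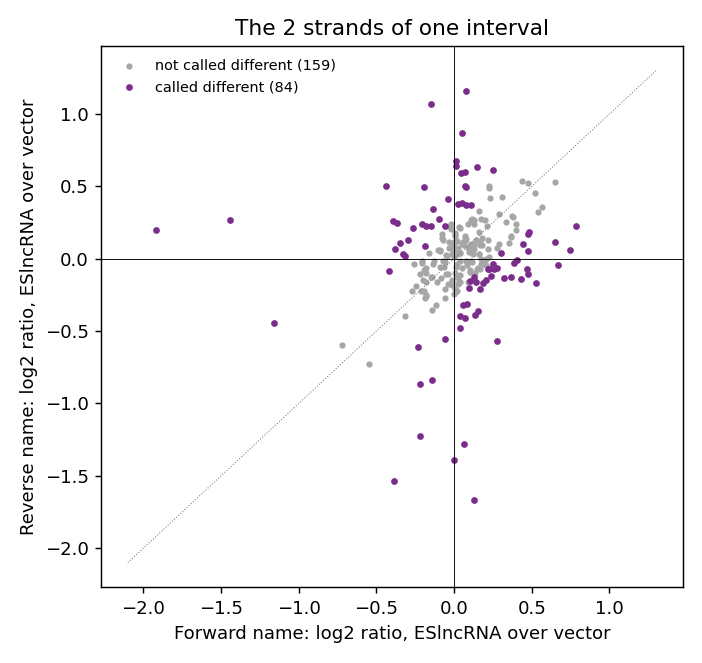
Log2 ratio of ESlncRNA over vector under the forward name (x axis) and the reverse name (y axis) of each of the 243 loci measured on both strands, as the mean of 2 arrays; the 84 loci called different by limma are purple. The largest differences lie along the axes, with 1 strand far from 0 and the other close to it.

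Among the loci that differed was the one beside Ppil1. Its forward probe gave -1.93 and -1.90 and its reverse probe, which covers 44 of the same base pairs, 0.27 and 0.13 (forward minus reverse -2.12 ± 0.12, adjusted p = 8.27e-09). At Abt1 the probes share 57 base pairs, and the forward gave 0.08 and 0.07 where the reverse gave 1.24 and 1.08 (difference -1.09 ± 0.11, adjusted p = 2.19e-06). In both cases nearly the same sequence, printed above, was read on opposite strands with ratios that do not overlap. At Abt1 the size of the difference is not exact, as the reverse probe's vector signal was well above background on 1 array only.

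In the Hoxb cluster the forward name gave 0.07 and 0.18 and the reverse name -1.61 and -1.73 (difference 1.79 ± 0.16, adjusted p = 2.17e-08). The locus 17.4 kb from Apol7a, an apolipoprotein L gene that was not measurable, gave -1.39 and -1.50 forward, with 5 of 5 probes lower, and 0.31 and 0.23 reverse (difference -1.71 ± 0.01, adjusted p = 2.17e-08). At Cd69, the gene of an early activation antigen of leukocytes, the reverse name runs on the gene's strand. It gave -1.41 and -1.37 with 8 of 8 measured probes lower, the forward name 0.02 and -0.02, and Cd69 itself -2.97 and -2.77 (forward minus reverse 1.39 ± 0.06, adjusted p = 1.85e-07). The strand of the gene was also the low one at Homez (-1.53 and -1.53 against -0.26 and -0.51; gene -1.23 ± 0.15).

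At Pcbp1, an RNA-binding protein gene, the strand of the gene gave -1.34 and -1.22 (at least 2.38-fold lower) and the other 0.01 and 0.12, with the gene at -0.08 ± 0.02 (adjusted p = 0.201). Of the 10 probes on the strand of the gene 2 were measured, and 1 of these was called lower. Asprv1, the next gene by distance, had a negative ratio as well. As the fall of the interval is only a bound, the ratios of interval and Asprv1 cannot be ranked. At Zfp937 the reverse name rose, with 1.06 and 1.08, and the forward name gave -0.18 and -0.12 (difference -1.22 ± 0.03, adjusted p = 5.88e-07; -5.05 with processed signals, since both names were dim in a channel). Among 69 loci called different with a measured gene, the name on the gene's strand was nearer to the gene's ratio in 42.

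Few of these intervals lie beside the genes that define the blood lineages. Of 60 listed erythroid genes only Bnip3l, which clears mitochondria from maturing red cells, had intervals within 20 kb as their nearest gene. Its 3 intervals were measured, with Bnip3l itself at 0.11 and 0.16. The reverse interval on the gene's strand gave -0.17 and -0.15 and was called lower (adjusted p = 0.0256), but its ratio was 0.24 with median centring, 0.00087 with processed signals and 0.13 over the mean of its probes. Of its 7 measured probes 3 were called higher and 1 lower. The 2 forward intervals gave 0.05 and 0.03, and 0.05 and 0.02, and were not called. They are represented by probes that overlap each other, so they are not separate measurements.

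Among 50 listed haematopoietic transcription factors and stem cell genes, 7 were nearest to 12 intervals, of which 7 were measured, 1 higher, 3 lower and 3 not called. The transcription factor gene Klf2 gave -1.60 and -1.84, and the interval 11.8 kb upstream on its strand -0.97 and -0.93 with both probes lower (adjusted p = 9.15e-06). Ikzf2, which encodes Helios, gave -1.79 and -1.82, and the interval downstream -0.99 and -1.17 with 4 of 4 measured probes lower (adjusted p = 1.40e-05). The fitted differences from the genes were 0.77 ± 0.20 and 0.73 ± 0.10 on the log2 scale, where the Ikzf2 interval was above background in ESlncRNA cells on 1 array only. Jun gave -1.46 and -1.41, and the interval upstream on the other strand -0.43 and -0.55 (adjusted p = 0.000347), where 1 of 2 measured probes was called and the other, well above background in both channels, stood at 0.00045. Near Mecom, the Evi1 gene of stem cells, the interval 1.53 kb downstream on the other strand gave 0.73 and 0.61, at least 1.45-fold higher (adjusted p = 7.44e-05), and Mecom was not measurable. Of this interval's 5 probes 1 was measured. None of the 41 myeloid and mast cell genes was the nearest gene of an interval, and the 2 intervals beside 1 of the 16 megakaryocyte genes were not measurable.

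At the 20 kb limit, the last interval inside with a measured gene lay 19.985 kb from Pls3, an actin-bundling protein, and gave -0.19 and -0.05 with the gene at -0.84 and -0.72. Both names of the locus 19.994 kb from Lhfpl3 were also just inside, with 0.28 and 0.16 forward and -0.13 and 0.27 reverse, and the gene was not measurable. Just outside, the interval 20.1 kb from Taf1 gave 0.33 and 0.20, with the gene at 0.23 and 0.20. The interval 20.1 kb from Frg1 gave -0.28 and -0.12 with -0.18 and -0.21 for the gene, and that 20.2 kb from Trim27 was not measurable.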

How the data were processed

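Spots were measured by Feature Extraction 10.1.1.1, as stated per the file headers. The deposited spot intensities used here are mean signals and median local backgrounds. The deposited log10 ratios served to check direction (r = 0.985 and 0.992 with the ratio of processed intensities). The authors' deposited log2 values, made with limma per the submitters' processing notes, correlated at r = 0.99996 with loess ratios without background subtraction and served as an alternative.

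Normexp background correction used an offset of 50, followed by loess within arrays, in R 4.3.3 with limma 3.58.1. Control spots and 284 and 308 marked spots had weight 0, and 0 spots were saturated. Of 55681 probes, 26791 stood well above background on each array in 1 channel or both and were fitted with an intercept (1 residual and 5.25 prior degrees of freedom), with Benjamini-Hochberg adjustment at 0.05. Each interval or gene is represented by its brightest such probe. Differences between interval and gene, and between strands, were fitted the same way over all pairs. The code was tested on simulated data. Of 26273 coding transcript probes, 26221 had a position, and 25731 took their name from RefSeq (GRCm38.p6) by accession, the rest from the file. Coordinates are those of the array files (mm9). "At least" marks a fold whose dim channel was well above background on neither array: the bright mean is divided by the dim channel's signal or, if larger, by the smallest signal counted as well above background (Aquantile scale, open to dye bias).

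Named intervals followed a written rule: the 8 highest and 8 lowest called (1 per overlapping stretch), the 6 largest called differences from the gene each way, 8 pairs of opposite direction, 8 strand pairs, 4 per gene list by smallest p, and 3 on each side of the limit. Mgam's overlapping interval came in by the second part. The intervals, lists and rules were chosen with earlier results of these data known. The labels name no separate cultures or animals for the replicates, so p-values rest on the variation of 2 arrays, possibly technical. Vector signals had medians of 35.9 and 39.5 and ESlncRNA signals 67.8 and 76.3, and 44.4% to 52.1% of spots were well above background in a channel. The number of arrays limits the precision.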

Additional observations from a re-analysis of the deposited data

How the results depend on the processing

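With median centring, the median over all genes moved from -0.03 to 0.34, 675 intervals were called higher and 97 lower, 18 and 13 passed 2-fold, their median was 0.22, 232 and 494 pairs had the interval above and below the gene, and r between strands was 0.164. With processed signals the median over all genes was 0.11, 481 were higher and 122 lower, 61 and 45 passed 2-fold, the median was 0.28, 204 and 83 pairs had the interval above and below the gene, and 32 loci differed between strands (r = 0.117). Relative to all genes the intervals thus stood lower under the first and higher under the second. With normexp offset 0, 29 and 44 intervals passed 2-fold, the median was 0.040, 151 pairs had the interval below, r on the gene's strand was 0.369, and 40 loci differed between strands (r = 0.160). Without background subtraction 15 intervals were at least 2-fold higher, the median was 0.019 and r on the gene's strand 0.371. The deposited log2 values gave 186 intervals higher, 15 at least 2-fold higher, a median of 0.015, r = 0.372 on the gene's strand and 52 loci that differed between strands.

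Without a background filter the median was 0.031, 649 and 404 pairs were called above and below, r on the gene's strand was 0.283, and 163 loci differed between strands (r = 0.102). With both channels above background, 3 intervals were at least 2-fold higher, the median was 0.038, r was 0.294 on the gene's strand and 0.028 on the other, and 49 loci differed between strands (r = 0.235). The mean of kept probes gave 2 and 10 intervals past 2-fold, a median of 0.022, r of 0.373 and 0.056 by strand and 0.289 between strands. Treating the channels without a replicate block (arrays not used as pairs) left 186 higher and 167 lower; pairs and strands were not run that way.

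Membership at 5 kb, which has fewer intervals by construction, gave 150 higher, 136 lower, 2 and 9 past 2-fold, a median of 0.019, 131 and 111 pairs above and below and r = 0.350 on the gene's strand. At 10 kb these were a median of 0.028, 212 pairs above and r = 0.383. The nearest measured gene as partner gave r of 0.325 and 0.030 by strand, and the gene probe nearest to the interval 0.387 and 0.038. Chosen after seeing the data were 3 alternatives: 1 interval per gene (182 and 133 pairs above and below, r = 0.410 and -0.056 by strand), gene probes spanning at most 1 kb (median 0.024, r = 0.372), and leaving out the intervals beside Mgam (r = 0.374). On single arrays, which allow no test, the median ran from 0.0239 to 0.0246, r on the gene's strand from 0.348 to 0.358 and r between strands from 0.174 to 0.183. Across all of these settings r on the gene's strand stayed above that on the other strand.

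Own ratios were re-run for the highest and lowest intervals and for those of the gene lists. For the other named intervals at most a difference was re-run, from the gene or between strands, so their own calls were not checked. Of the re-run ratios and differences, 2 changed direction under a setting, those of the reverse interval at Bnip3l and of the interval at Jun. The Bnip3l ratio was 0.24 with median centring, 0.00087 with processed signals and 0.13 over its probes. The Jun ratio was 0.00045 with both channels above background, where another probe stands for the interval. The forward intervals at Bnip3l, not called otherwise, were called with median centring (0.68 for both). Except for Bnip3l, Jun and the differences at Mgam and Rps20, the re-run ratios and differences kept direction and call in the settings run. A single array allows no call. The cause of these shifts was not tested. Signal over background limits the rest: 851 intervals were not measurable, and intervals dim in 1 channel have only a bound. Those dim in that channel on both arrays passed the filter through the other channel only, so their direction is not independent of the filter.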
